A study of Mus musculus with 6 samples.

Results

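The I-BAR family comprises Baiap2 (IRSp53), Baiap2l1 (IRTKS), Baiap2l2 (pinkbar), Mtss1 (MIM) and Mtss1l (ABBA, now named Mtss2). Its members were taken as every probe set annotated to 1 of these symbols alone. That gave 7 of 35556 probe sets for 5 genes, with 3 probe sets for Baiap2l1 and 1 for each of the others. The family was chosen on the diabetic-against-normal difference of Baiap2l1, whose brightest probe set (10445185) stood out in an earlier look at the same 6 arrays, so all the family's differences between diabetic and normal samples are described here without a test.

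The samples were keratinocytes at the migrating tip of the epithelial tongue in mouse skin wounds, harvested 3 days after wounding. Diabetic animals (3 arrays) had been fed a diet high in fat and fructose from 8 weeks of age for 16 weeks, and normal animals (3 arrays) a control diet for as long. All samples were fixed, taken by laser capture from tissue in which E-cadherin marked the cells, and pooled over the sections of a sample; neither strain nor sex is given in the labels used here. The titles call the arrays biological replicates, but no label ties them to separate animals, so the errors measure the spread between these samples, which may be technical.

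I-BAR proteins carry an inverse BAR domain, a helical dimer whose convex face binds the inner side of the plasma membrane and pushes it outward. Baiap2 and Baiap2l1 join this domain to an SH3 domain, through which they bring actin regulators of the WAVE, N-WASP, Ena/VASP and Eps8 kinds to the membrane downstream of Cdc42 and Rac, and so take part in filopodia and lamellipodia, the protrusions with which migrating epithelial cells advance. Baiap2l2 is known from intestinal epithelium, where its BAR domain forms flat rather than curved sheets. Mtss1 and Mtss1l have a WH2 motif that binds actin monomers, and Mtss1 was first described as a transcript lost in metastatic cells.

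The annotation did not give the 3 Baiap2l1 probe sets the same identity. Probe sets 10445185 and 10536170 listed the same 7 sequence records. Of these, 2 are RefSeq records known as those of the 18S ribosomal RNA and the 45S ribosomal RNA precursor, and the gene's own RefSeq mRNA is not among the 7. Probe set 10535559 listed 3 records, the gene's RefSeq mRNA among them and 0 of the ribosomal records. A single cDNA record is shared by all 3, and 0 other probe sets list it. On the whole array, 3 probe sets list the 18S or the 45S record: these 2, and 1 that names both Rn28s1, the 28S ribosomal RNA gene, and Cdk8 (10593865). The 2 bright probe sets are therefore called ribosomal-record probe sets here, and 10535559 the mRNA probe set of Baiap2l1. Probe sequences were not used here, so which RNA bound to them was not tested.

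Signals are log2 probe set values as deposited. They were read against a background limit, set on each array as the 95th percentile over 1194 genes of olfactory or vomeronasal receptors, and this limit lay between 1.98 and 2.12. Levels of different probe sets are not set against each other, because each probe set has its own response. The 3 Baiap2l1 probe sets moved in different directions between the groups. In diabetic samples both ribosomal-record probe sets had the higher mean, and the mRNA probe set the lower. The mRNA probe set lay under the background limit on all 6 arrays, so these arrays give no more than a bound on the Baiap2l1 mRNA in either group.

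The mRNA probe set of Baiap2l1, like Baiap2 known as a substrate of the insulin receptor kinase, read 1.5, 1.92 and 1.59 in the diabetic group, against 2.10, 1.96 and 1.86 in the normal group. Diabetic replicates 1 and 3 were the lowest of the 6, and diabetic replicate 2 lay above normal replicate 3, so the groups overlapped. The means were 1.67 ± 0.22 (SD, n = 3) and 1.97 ± 0.12 (SD, n = 3), and the difference, diabetic minus normal, was -0.30 (SE 0.14). Without each array in turn it ran from -0.43 to -0.22.

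The brightest probe set with the Baiap2l1 symbol, 10445185, read 10.37, 9.56 and 9.09 in the diabetic group, against 8.08, 9.38 and 7.99 in the normal group. Normal replicate 2 reached into the diabetic range and exceeded diabetic replicate 3, while the other 2 normal arrays lay more than 1 log2 unit below every diabetic array. The means were 9.67 ± 0.65 (SD, n = 3) and 8.48 ± 0.78 (SD, n = 3), a difference of 1.19 (SE 0.47), or 2.29-fold on the signal scale. It was 0.84 without diabetic replicate 1 and 1.64 without normal replicate 2.

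The other ribosomal-record probe set, 10536170, read 6.71, 6.31 and 6.21 in the diabetic group, against 5.42, 6.24 and 5.37 in the normal group. Its order over the arrays was the same, with diabetic replicate 1 highest and normal replicate 2 just above diabetic replicate 3. The means were 6.41 ± 0.27 (SD, n = 3) and 5.68 ± 0.49 (SD, n = 3), a difference of 0.73 (SE 0.31), or 1.66-fold. It ran from 0.58 to 1.02 with each array left out. Both probe sets list the same records and come from the same arrays, so the second is not a further sample of the first.

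**Figure D1:**
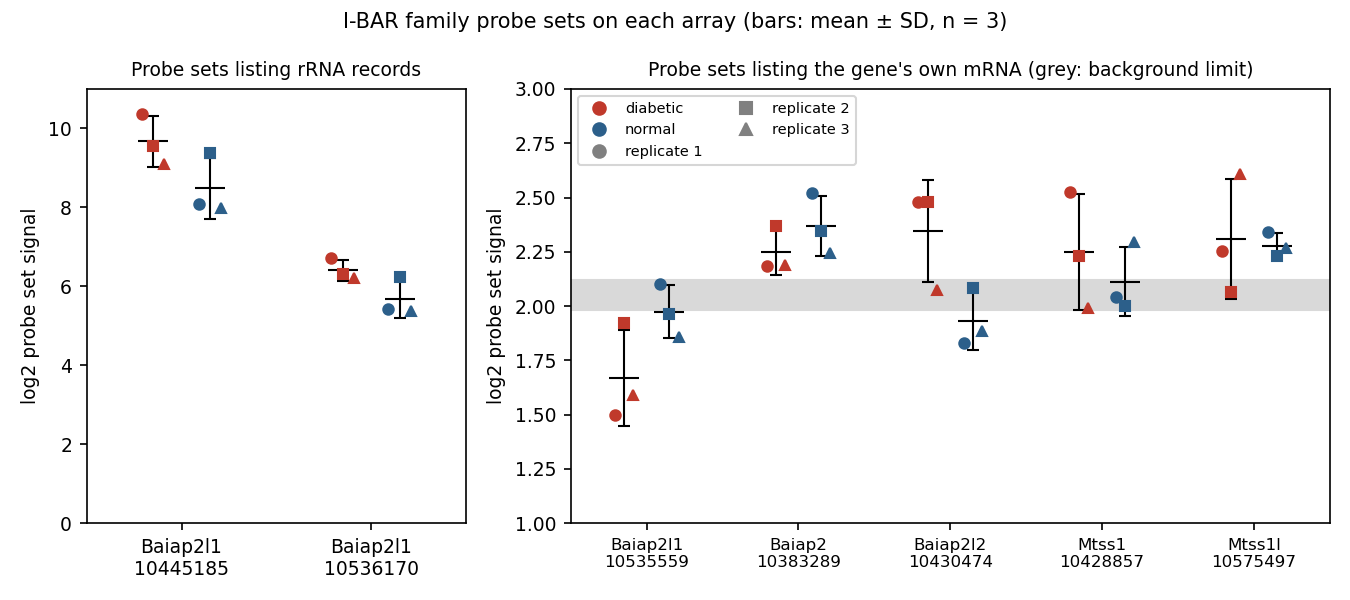
Log2 signal (vertical axes) of the 7 I-BAR probe sets on each array, with diabetic arrays in red, normal arrays in blue, symbols for replicate numbers, and black bars for the mean ± SD of 3 arrays. The ribosomal-record probe sets on the left lie between 5.37 and 10.37, and the mRNA probe sets on the right lie around the grey band, which spans the background limits of 1.98 to 2.12; the vertical axes differ between the panels and the right one starts at 1.

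The 28S ribosomal RNA probe set (10593865) read 8.14, 6.85 and 6.41 in the diabetic group, against 4.10, 8.09 and 5.51 in the normal group. Here too diabetic replicate 1 was highest, and normal replicate 2 was the second highest of all 6. Its difference was 1.23 (SE 0.98), and it rested on single normal arrays: 0.33 without normal replicate 1 and 2.33 without normal replicate 2. Relative to this probe set on the same array, the difference of 10445185 between the groups was -0.04, with relative values of 2.23, 2.71 and 2.68 in the diabetic group, against 3.98, 1.29 and 2.48 in the normal group. This relative value was most extreme, in both directions, on normal arrays. For the companion 10536170 the same calculation gave -0.50. The only probe set of 5S ribosomal RNA named in the annotation (n-R5s136) read 2.35, 3.12 and 3.07 in the diabetic group, against 3.71, 3.23 and 1.83 in the normal group.

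**Figure D2:**
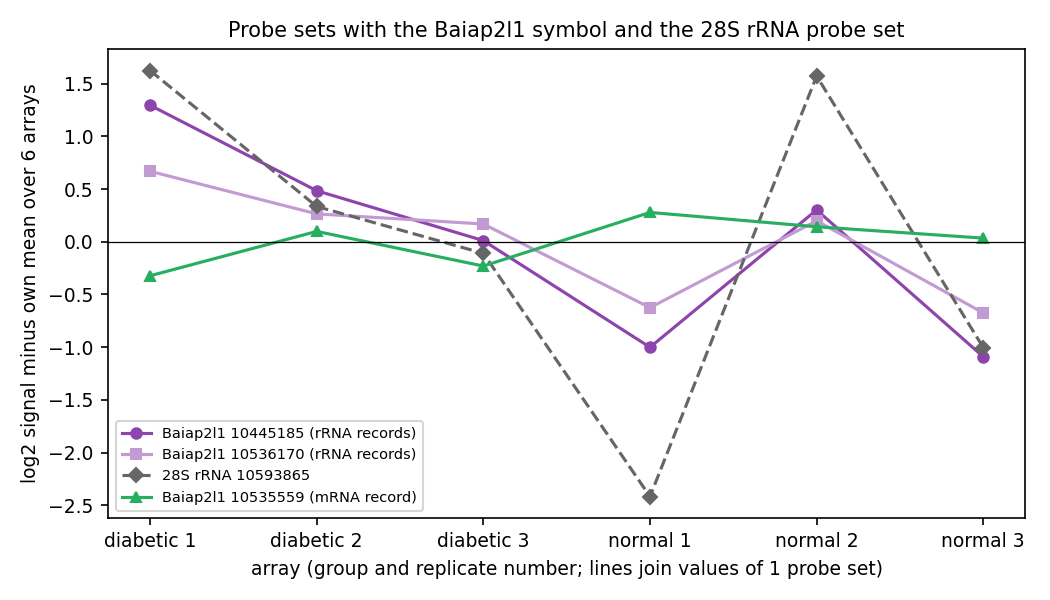
Deviation of each probe set from its own mean over the 6 arrays (vertical axis, log2) by array (horizontal axis), for the 3 probe sets with the Baiap2l1 symbol and the 28S ribosomal RNA probe set; lines join the values of 1 probe set and imply no order of replicates. The 2 ribosomal-record probe sets and the 28S probe set are highest on diabetic replicate 1 and rise together on normal replicate 2, whereas the mRNA probe set is lowest on diabetic replicate 1.

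Likeness of pattern was measured as the root mean square (RMS) difference, over the 6 arrays, between the deviations of each probe set from its own mean, so that 0 means the same pattern and size. Between the 2 ribosomal-record probe sets it was 0.36, and between 10445185 and the mRNA probe set it was 0.98. The 28S probe set was at 0.79 from 10445185, farther than Baiap2l2 (0.61) or Mtss1 (0.77). The measure weighs the size of the swings as well as their direction, so a larger swing alone adds distance. Deviations ran from -2.42 to 1.62 for the 28S probe set, from -1.09 to 1.29 for 10445185 and from -0.19 to 0.34 for Mtss1. A rank by this measure is therefore not a rank of likeness in direction. Among 5664 named genes above the background limit on at least 3 arrays, leaving out predicted genes, chemosensory receptors and non-coding RNAs, 0 were nearer to 10445185 than its companion was, and 1446 were nearer than the 28S probe set. The nearest 5 were Rps18 (0.37), a protein of the small ribosomal subunit, Wfdc18 (0.43), a whey acidic protein family member, Trio (0.45), a guanine nucleotide exchange factor, Btg1 (0.45), an antiproliferative gene, and Nudc (0.47), a dynein-associated chaperone. Across all 35555 other probe sets, the nearest was 10608691 at an RMS difference of 0.06, and 17 of the nearest 20 are not listed in the annotation and stay unnamed. The nearest with a name was Rpph1, the RNA of ribonuclease P, at 0.27; it was singled out after its values were seen.

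Rps18 lay nearest of the 5664 genes to 10536170 as well, and there almost coincided with it (RMS difference 0.05). Its brightest probe set (10409968) read 5.22, 4.87 and 4.64 in the diabetic group, against 3.96, 4.68 and 3.90 in the normal group. Rps18 has 7 probe sets with the same records. The other 5 that exceeded the limit on each array differed by 0.49, 0.44, 0.47, 0.20 and 0.45, and the dim one (10549802) by -0.30. Like the mRNA probe set of Baiap2l1, this dim probe set was under the background limit on all arrays, so its direction is not read as a change in transcript. Rps18 was named for its likeness to a probe set picked on this contrast, so its differences are described here without a test.

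Baiap2, the Cdc42 and Rac effector of the family, read 2.18, 2.37 and 2.19 in the diabetic group, against 2.52, 2.34 and 2.24 in the normal group. It exceeded the background limit on each array, and the groups overlapped. The difference was -0.12 (SE 0.13), and it ran from -0.18 to -0.05 with each array left out, the smallest without normal replicate 1.

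Baiap2l2, the flat-sheet member, read 2.48, 2.48 and 2.07 in the diabetic group, against 1.83, 2.08 and 1.89 in the normal group. It was above the background limit on diabetic replicates 1 and 2 and on 0 normal arrays, with diabetic replicate 3 and normal replicate 2 nearly equal. The means were 2.34 ± 0.23 (SD, n = 3) and 1.93 ± 0.13 (SD, n = 3), a difference of 0.41 (SE 0.15), and it ran from 0.34 to 0.55 with each array left out. Its normal level is therefore only a bound. The arrays on which it was detected, diabetic replicates 1 and 2, are also those with the lowest background limits, 1.98 and 2.01, and the largest shares of all genes above the limit, 35.3% and 36.6% against 27.4% to 29.4% on the other 4 arrays; the part of this in the Baiap2l2 values was not tested.

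Of the actin-monomer binding pair, Mtss1 read 2.52, 2.23 and 1.99 in the diabetic group, against 2.04, 2.00 and 2.29 in the normal group. It passed the background limit on 2 diabetic arrays and 1 normal array. The difference was 0.14 (SE 0.17), and without diabetic replicate 1 it was -0.0019, so its direction rested on that array. Mtss1l read 2.25, 2.07 and 2.61 in the diabetic group, against 2.34, 2.23 and 2.27 in the normal group, above the limit on all 6. Its difference was 0.03 (SE 0.16), and it turned to -0.12 without diabetic replicate 3, the highest of the 6 arrays, and rose to 0.15 without diabetic replicate 2, the lowest.

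**Figure D3:**
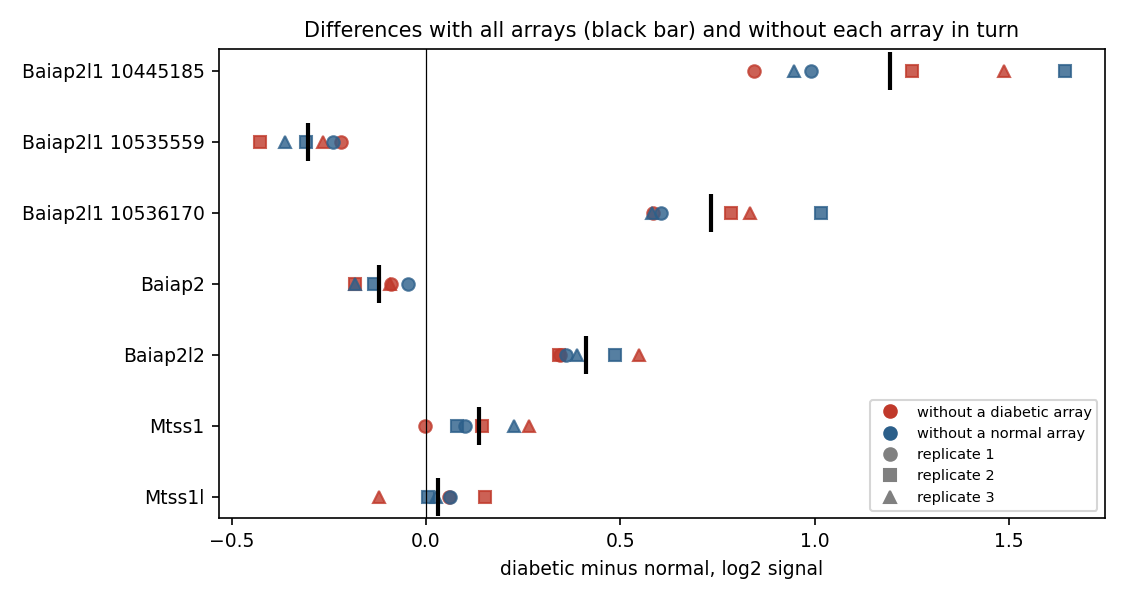
Difference between group means, diabetic minus normal in log2 signal (horizontal axis), for the 7 probe sets (vertical axis), with all 6 arrays (black bar) and without each array in turn (red for a diabetic, blue for a normal array left out, symbols for replicate numbers). The differences of the 3 Baiap2l1 probe sets, Baiap2 and Baiap2l2 keep their sign in all 6 refits, and those of Mtss1 and Mtss1l change sign in 1 refit each.

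Over the family, 4 of the 7 probe sets exceeded the background limit on each of the 6 arrays: both ribosomal-record probe sets, Baiap2 and Mtss1l. The groups did not overlap for 0 of the 7, where 11.1% of all 35556 probe sets showed no overlap. Since the contrast was the one that led to the family, nothing is read from this count. In bulk samples such as these, fewer cells that make a transcript and less of it in each cell cannot be told apart.

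The partners that I-BAR proteins bring to the membrane showed no call. Of 63 listed genes 58 were measured, of which 37 had a higher and 21 a lower mean in diabetic samples; their median difference was 0.04, against a median of -0.0039 and 48.7% higher over all 19938 genes. With limma and Benjamini-Hochberg adjustment 0 of the 58 passed, as did 0% of all genes, the smallest adjusted p among the partners being 0.893. At an unadjusted p under 0.05 limma gave 0 of 58, where 5.56% of all genes passed. Of the 58, 1 higher gene (Rac2) and 2 lower genes (Wipf3 and Fmnl2) showed no overlap between groups, where 10.7% of all genes did. For Wipf3 the nearest values were 2.451 on diabetic replicate 3 and 2.454 on normal replicate 3. Fmnl2 was under the background limit on all arrays. The 95% confidence interval lay within 2-fold in either direction for all 58, a statement on array signal, since 21 of them were above the background limit on no array and 19 on all.

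The small GTPases and their Tiam exchange factors switch I-BAR proteins and actin nucleators on. All 10 measured genes of this group had a higher mean in diabetic samples, where 48.7% of all genes did. Of the 10, 2 exceeded the background limit on all 6 arrays and 3 on no array. The count of 10 held after quantile normalization or median centring, and the median difference was 0.16. The count was 8 of 10 without diabetic replicate 2 and the median then 0.08, and it was 8 without normal replicate 2 and 9 without normal replicate 3. Cdc42, the GTPase that Baiap2 binds, read 1.69, 2.19 and 1.84 in the diabetic group, against 1.69, 1.60 and 1.60 in the normal group. It passed the background limit on diabetic replicate 2 alone, and its difference was 0.28 (SE 0.14, adjusted p 0.893), or 0.13 without that array. Rac1, the lamellipodial GTPase, was above the limit on all 6 arrays, at 2.70, 3.16 and 3.19 in the diabetic group, against 2.74, 2.96 and 2.77 in the normal group. The difference was 0.19 (SE 0.16), and the groups overlapped. Rac2, mainly a GTPase of blood cells, differed by 0.23 (SE 0.13) and was the only 1 of the 10 whose groups did not overlap, where 10.7% of all genes did not. The groups' values of Rhoq, a close relative of Cdc42, overlapped at a difference of 0.18, or 0.03 without diabetic replicate 2, and it was under the limit on all arrays.

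Nucleation factors split. Of 15 WASP and WAVE genes, 8 were higher and 7 lower, and the median was 0.01; without normal replicate 3 it was 7 higher, with a median of -0.0092. The WAVE subunit genes Wasf3 and Wasf1 differed by 0.35 (SE 0.16) and 0.18 (SE 0.12), and the WASP-interacting protein gene Wipf3 by -0.25 (SE 0.13), from 2.22, 2.31 and 2.45 in the diabetic group, against 2.60, 2.69 and 2.45 in the normal group. Wasf1 was under the background limit on all arrays, and Wasf3 passed it on diabetic replicate 2 alone. Wasf2 and Wasl, which encode the WAVE and N-WASP forms known to bind Baiap2, differed by 0.03 (SE 0.16) and 0.01 (SE 0.12). Of 8 measured genes of the Arp2/3 complex and cortactin, 6 were higher with a median of 0.08, but without diabetic replicate 1 only 3 were, with a median of -0.03. Arpc5 differed by 0.26 and by -0.06 without that array, which read 2.66 where the others of its group read 1.51 and 1.88. Actr3 differed by 0.23 and by -0.0092 without it, and Arpc2 by 0.17.

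Elongation factors of the Ena/VASP and formin families had 4 of 11 members higher and a median of -0.03; 6 were higher without diabetic replicate 3, with a median of 0.03, and 2 without normal replicate 3. Enah and Vasp, which extend filopodial filaments and bind the SH3 domain of Baiap2, differed by 0.15 (SE 0.15) and -0.06 (SE 0.16). Vasp was well above the limit on every array, between 3.79 and 4.13, and its difference was 0.04 without diabetic replicate 1. The profilin gene Pfn2 differed by -0.24 (SE 0.12), the formin gene Fmnl2 by -0.20 (SE 0.12) and Diaph3 by 0.01. Pfn2, Fmnl2 and Diaph3 were under the background limit on all arrays. Of 14 genes of Eps8 relatives, bundling proteins and Shank scaffolds, 9 were higher. Eps8, the capping and bundling partner of Baiap2, was at -0.07 (SE 0.14) and at 0.04 without normal replicate 3, the bundling protein gene Fscn1 at 0.20 (SE 0.13), Eps8l3 at 0.22 (SE 0.13), Shank2 at 0.30 (SE 0.19), Cobl at -0.17 (SE 0.12) and the filopodial motor gene Myo10 at -0.03 (SE 0.12). Cobl and Myo10 were under the background limit on all arrays. The smallest adjusted p in these 4 groups and the GTPases, by limma, was the 0.893 given above, so these values are levels and differences without a call.

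**Figure D4:**
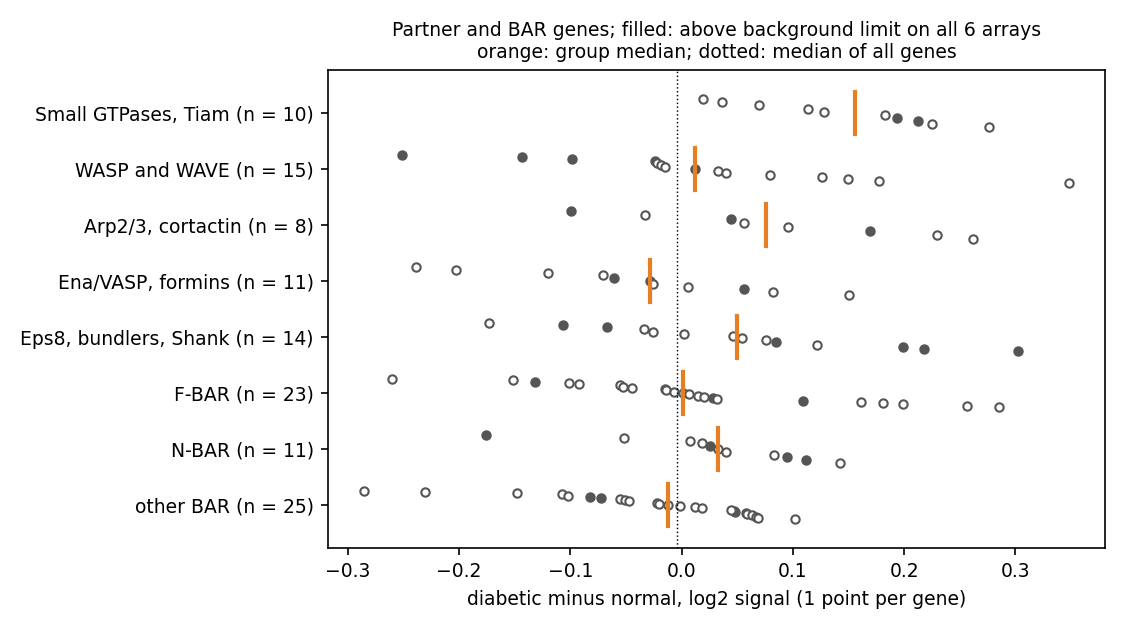
Difference, diabetic minus normal in log2 signal (horizontal axis), for each measured gene of 5 groups of I-BAR partners and 3 groups of other BAR-domain genes (vertical axis); filled points exceeded the background limit on each of the 6 arrays, orange bars are group medians and the dotted line the median of all genes. The 10 small GTPase and Tiam genes all lie above 0, at 0.02 to 0.28, and the other groups lie on both sides of it.

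Genes of the wider BAR superfamily, whose F-BAR and N-BAR domains mostly bend membranes inward, gave no call either. Of 61 listed genes 59 were measured, 32 with a higher and 27 with a lower mean, and their median difference was 0.01. At an unadjusted p under 0.05 limma gave 1 higher gene and 1 lower gene, against 2.64% and 2.92% of all genes, and 0 passed after adjustment. Of the 59, 4 higher genes (Pacsin1, Fcho1, Fnbp1 and Amph) and 1 lower gene (Snx2) showed no overlap between groups, where 10.7% of all genes did. Pacsin1, an F-BAR adaptor of endocytosis, read 2.05, 2.38 and 2.04 in the diabetic group, against 1.86, 1.90 and 1.86 in the normal group, a difference of 0.28 (SE 0.13, adjusted p 0.887). Pacsin1 passed the background limit on diabetic replicates 1 and 2 alone. Snx2, a sorting nexin of the retromer, read 1.17, 1.14 and 1.35 against 1.48, 1.49 and 1.54, a difference of -0.29 (SE 0.10, adjusted p 0.792), under the background limit on all arrays.

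Among the other F-BAR genes Fcho1 differed by 0.20 and Fnbp1 by 0.18, and the values of the groups did not overlap for either, nor for Pacsin1, a count of 3 of 23 where 10.7% of all genes showed no overlap. Fnbp1 was under the background limit on all arrays, and Fcho1 passed it on diabetic replicates 1 and 2 alone. Of 23 F-BAR genes 12 were higher, and the count was 15 after quantile normalization and 11 without diabetic replicate 3. Of 11 N-BAR genes 9 were higher, with a median of 0.03, and 5 without diabetic replicate 2, with a median of -0.03. Among them were Amph at 0.14, which was under the background limit on all arrays, Sh3glb2 at -0.18 and Sh3gl1 at 0.11. Of 25 other BAR genes 11 were higher, 15 after quantile normalization, 8 without diabetic replicate 2 and 14 without diabetic replicate 3, with Arhgef37 at -0.23, which was 0.01 without normal replicate 1, and Appl1 at -0.11. Appl1 was under the background limit on all arrays, and Arhgef37 passed it on normal replicate 1 alone.

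Markers of the captured cells were mostly dim, so the label of keratinocytes rests on few of them. Of 22 keratinocyte markers 4 exceeded the limit on each of the 6 arrays and 8 on no array. E-cadherin (Cdh1), used to find the cells, was under the limit on all 6 arrays (between 1.84 and 2.06). The basal keratins Krt5 and Krt14 were under it on the normal arrays, and each passed it on 2 diabetic arrays. The 4 markers above it on all 6 arrays were Krt10, Krt15, Itgb4 and Sfn. The summed linear signal of the list was 92.6 to 97.8 on diabetic and 94.4 to 106.4 on normal arrays. The simple-epithelium list summed to 56.6 to 110.0 and 48.1 to 60.2, with Krt8 at 4.27, 6.06 and 3.86 against 2.95, 3.93 and 3.76. Krt8 differed by 1.19, and by 0.52 without diabetic replicate 2, while 5 of the 10 genes of the list were higher, with a median of -0.0097, and Krt18, the usual partner of Krt8, differed by -0.02. Of 20 measured ribosomal protein genes 13 were higher in diabetic samples, and their sums did not overlap, at 279.7 to 385.2 and 157.5 to 220.4. Without Rpl5 and Rpl26, an alternative chosen after the data were seen, the sums overlapped. These 2 genes had the largest differences of the list, 1.74 and 2.51. Leaving them out therefore favours overlap, and nothing is read from it. The highest ribosomal protein sum lay on diabetic replicate 3, where the ribosomal-record probe sets had their lowest diabetic values. Among normal arrays it lay on replicate 1, whereas those probe sets were highest on replicate 2. Without Rpl5 and Rpl26 the sums were 166.3, 187.5 and 162.4 on diabetic arrays, against 198.6, 156.2 and 137.7 on normal arrays. Diabetic replicate 3 was then the lowest of its group, as in the ribosomal-record probe sets, and normal replicate 1 was still the highest of its group. Rplp1 was kept in these sums. It read 6.29 (log2) on normal replicate 1, against 4.55 and 4.34 on normal replicates 2 and 3. The order of the normal arrays may thus rest on this gene, and sums without it were not taken. Macrophage markers, of which 10 of 12 were above the limit on no array, summed to 38.7 to 39.2 on diabetic and 40.0 to 41.0 on normal arrays. Counted over markers above the limit on at least 1 array, an alternative chosen after the data were seen, the macrophage sums overlapped and the neutrophil sums did not, at 15.3 to 16.0 and 16.2 to 22.2. The 22.2 was normal replicate 2, where S100a9 read 3.08, against 1.82 and 2.25 on the other normal arrays. Of all 10 neutrophil markers 3 were higher in diabetic samples, with a median of -0.02. After quantile normalization 7 were, with a median of 0.02, and after median centring 5 were. Of 14 skeletal muscle markers 11 were higher in diabetic samples, and their sums overlapped. The groups did not overlap for 4 of the 14, all higher, where 10.7% of all genes showed no overlap. Of these, Myot was under the limit on all arrays and Myh2 above it on 1. Among the 22 keratinocyte markers 2 did not overlap, Cdh1 and Perp, both lower in diabetic samples.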

How the data were processed

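The deposited file holds the authors' log2 signals of 35556 probe sets on 6 arrays. The submitters' processing notes name Partek. How background was corrected and how arrays were normalized and summarized is not stated in the labels, and base 2 was taken from the range of the values. Values were used as deposited by the authors, without scaling. Array medians lay between 1.75 and 1.80.

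Gene symbols came from the platform's annotation (21789 with 1 symbol, 1621 with several, 12146 not listed), with symbols updated by gene ID through RefSeq for GRCm38.p6 (21698 matched). The 18S and 45S record names are background knowledge; that table does not hold them. The labels give no genome build for the array, so no coordinates are printed, and no sequence is printed because the probes' sequences were not used here.

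Differences between groups came from limma 3.58.1, under R 4.3.3 (lmFit, eBayes with intensity trend, group as the only term, Benjamini-Hochberg adjustment), over all probe sets for the family and over 19938 genes, each by its brightest single-symbol probe set, for the lists; SE is limma's moderated standard error. It was tested on simulated data. Precision is limited by 3 arrays per group.

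The members, lists and naming rule were chosen with earlier results of these data known. From each list group up to 3 genes with the smallest unadjusted p were named, beside Cdc42, Rac1, Eps8, Wasl, Wasf2, Enah, Vasp, Fscn1, Myo10 and Diaph3 whatever their values; for cell markers, Cdh1, Krt5, Krt14, Krt10, Krt8 and any list whose sums separated the groups; and the 5 genes most like Baiap2l1. Further marker lists (fibroblast, skeletal muscle, neutrophil, endothelial, and melanocyte with nerve) had overlapping sums over all measured members.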

Additional observations from a re-analysis of the deposited data

How the results depend on the processing

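The Baiap2l1 difference of 1.19 depended on the choice of probe set, made after the data were seen. It was -0.30 with the mRNA probe set. Relative to the 28S ribosomal RNA probe set it was -0.039, where its companion was at -0.50. The 28S difference was itself 1.23 with an SE of 0.98, and the relative values carry that spread. The mean of the 3 Baiap2l1 probe sets gave 0.54. Under quantile normalization none of the 7 differences moved by more than the SD between replicates, nor did the 3 of Baiap2l1 with array weights. Median centring added the same small amount to every difference. The replicate block leaves each difference unchanged by design, because each replicate number occurs once in each group, so it is no check on them. The leave-one-out ranges were -0.18 to -0.05 for Baiap2, 0.84 to 1.64, -0.43 to -0.22 and 0.58 to 1.02 for the 3 Baiap2l1 probe sets, 0.34 to 0.55 for Baiap2l2, -0.0019 to 0.27 for Mtss1 and -0.12 to 0.15 for Mtss1l. Same-numbered arrays did not deviate together (r across genes -0.02, 0.01 and 0.01). This check cannot exclude a pairing that leaves little trace in the signals. With the replicate block 0 genes passed. With a limit at the 99th percentile 2 member probe sets, not 4, were above it on all arrays.

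After adjustment, 0 genes passed in all settings with 6 arrays and 0 to 2 with an array left out (Ifitm3 and Snord118 without diabetic replicate 2, Rpl5 without diabetic replicate 3). At an unadjusted p under 0.05, all genes gave 363 of 6350 with the filter on dim genes (fewer genes were tested) and 911 to 1391 with an array left out. The partner list then gave 2 with array weights, 2 with median centring, 2 with quantile normalization, and 1 each with the mean of probe sets, the replicate block and robust variance, from among Wasf3, Cdc42, Pfn2 and Arpc1b, and 0 to 4 with an array left out (4 without diabetic replicate 1: Cdc42, Pfn2, Rac1 and Wasf3). The BAR list gave 0 with the filter on dim genes and 0 to 3 with an array left out, 0 of them without diabetic replicate 2; Pacsin1 was lost without normal replicate 1, 2 or 3. The causes were not tested.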
